A study of Mus musculus with 9 samples.

Results

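The apolipoproteins and the factors that load and remodel lipoproteins were followed through the livers as 10 named genes: Apoa1, Apoa2, Apoa4, Apoa5, Apob, Apoc3, Apoe, Mttp, Lcat and Scarb1. They were chosen by gene symbol as a functional group, with earlier results of these data known. All 10 were among the 17305 genes of the deposited table, and all 10 were among the 13059 genes that passed the filter on low counts. The RNA came from whole livers of male Balb/c mice, labelled 8 weeks old, which all received the hepatotoxin CCl4 for 8 weeks and an adeno-associated virus of serotype 8 (AAV8) by tail vein. The virus carried a negative control in the NC livers, and 1 of 2 shRNAs against the long non-coding RNA lnc-Helf in the sh1# and sh2# livers. Each group had 3 mice with 1 library each. All 3 groups received CCl4 and a virus, so untreated liver was not compared here. The labels place the virus injection 4 weeks after the first CCl4 injection, whereas the study's methods give another time and dose. Which promoter drives the shRNAs is stated neither in the labels nor in the methods.

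Lipoproteins carry triglyceride and cholesterol through plasma, and the liver is their main source together with the intestine. In hepatocytes, microsomal triglyceride transfer protein (Mttp) loads lipid onto apolipoprotein B (Apob) in the endoplasmic reticulum, and the particle leaves the cell as very low density lipoprotein. Apolipoproteins A-I and A-II (Apoa1, Apoa2) are the main proteins of high density lipoprotein, whose cholesterol is esterified by Lcat and taken up by the receptor Scarb1. Apoa5 favours and Apoc3 restrains the clearance of triglyceride by lipoprotein lipase, Apoe is a ligand for hepatic uptake, and Apoa4 travels on triglyceride-rich and high density particles.

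The total expected count per library was between 14265875 and 16816431, and albumin (Alb) took between 6.81 and 12.4% of it. The deposited table gives 1 value per gene and none to lnc-Helf itself. Fmo2 was taken as the gene whose locus holds lnc-Helf, which the study's text does not state. Its level was 202 to 265 CPM in the NC, 104 to 122 in the sh1# and 88.2 to 174 in the sh2# livers. CPM is the standard depth-scaled count, with library sizes corrected by TMM factors. The adjusted p from edgeR was 0.143 for sh1# and 0.0528 for sh2#. Both shRNA groups lay below NC for Fmo2, as did 12.9% of all genes for sh1# and 16.1% for sh2#. Fmo2 does not measure lnc-Helf, whose knockdown the study reports by qRT-PCR. The labelled tissue was seen in the levels of its markers. Of the 14 hepatocyte markers in the table, Alb reached 59636 to 102270 TPM, and the lowest, Serpina1a, lay at 163 to 220 TPM. All 14 passed the filter, which is not particular to the tissue, since 13059 of 17305 genes passed it, among them all 15 macrophage and all 10 endothelial markers. Of the 8 markers of enterocytes, pancreas and adipocytes in the table, Vil1, Cpa1, Adipoq and Plin1 reached at most 6, 1, 1 and 1 counts in any library, and the other 4 passed the filter. These were Fabp2 at 84.2 to 254 TPM, Fabp4 at 26.6 to 99.7 TPM, Cela1 at 4.16 to 10.95 TPM and Cidec at 0.88 to 9.63 TPM.

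Apoa1, Apoc3, Apoa4 and Apoa5 lie next to each other in this order on mouse chromosome 9, with no other protein-coding gene of the RefSeq table between them. The 250 bases before the annotated start of Apoa1, Apoa4 and Apoa5 are shown because this cluster holds Apoc3 and Apoa4, the members whose sh2# libraries all lay above the NC libraries. The sequences are those of RefSeq on GRCm38.p6, plus strand, at chr9:46228380-46228629, chr9:46240594-46240843 and chr9:46268358-46268607. Capitals mark matches to the motifs given after the sequences.
Apoa1: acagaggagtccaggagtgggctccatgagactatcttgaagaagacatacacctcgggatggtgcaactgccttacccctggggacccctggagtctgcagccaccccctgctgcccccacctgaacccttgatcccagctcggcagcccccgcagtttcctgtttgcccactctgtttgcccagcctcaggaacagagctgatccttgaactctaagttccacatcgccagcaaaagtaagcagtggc
Apoa4: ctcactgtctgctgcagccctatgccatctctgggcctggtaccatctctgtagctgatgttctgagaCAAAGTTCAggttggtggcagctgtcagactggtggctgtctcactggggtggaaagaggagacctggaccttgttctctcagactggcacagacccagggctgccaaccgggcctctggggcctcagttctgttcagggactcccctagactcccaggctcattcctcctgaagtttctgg
Apoa5: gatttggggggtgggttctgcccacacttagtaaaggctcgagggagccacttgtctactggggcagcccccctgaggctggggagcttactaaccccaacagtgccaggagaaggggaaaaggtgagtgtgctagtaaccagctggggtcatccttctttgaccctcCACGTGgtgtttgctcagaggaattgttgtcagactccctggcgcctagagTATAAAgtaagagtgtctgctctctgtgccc
RefSeq entries were found for 8 of the 10 members, not for Apoc3 or Scarb1. The motifs searched on both strands were TGNACTTTG for HNF4, TTGNNCAA for C/EBP, the TATA box TATAAA and the E-box CACGTG, none of which contains another. In windows of this length, they were present in 1.19, 5.65, 12.4 and 6.02% of 32851 promoters. Apoa4 held the HNF4 motif, on the strand opposite to the gene, starting 182 bases before its start. Apoa5 held the E-box 82 bases and the TATA box 31 bases before its start, and a second annotated start of Apoa5 placed them 107 and 56 bases away. Apoa1 held none of the 4 motifs. Of the other members, Apob held a TATA box 60 bases before its start. Apoe held it at 100 and 96 bases before 1 of its 3 annotated starts and Apoa2 at 212 bases before 1 of its 2, and their other windows, like those of Mttp and Lcat, held no match. These matches describe the letters of the windows, and binding was not measured.

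The members spanned more than 2 orders of magnitude in level. Levels of different genes were compared in TPM, which corrects for transcript length. Over the 9 libraries, Apoe had a mean of 20374 TPM at rank 3 among all genes, Apoa2 had 19637 TPM at rank 4, and Apoa1 had 16061 TPM at rank 6. Apoc3 followed with 6193 TPM at rank 20 and Apoa4 with 1665 TPM at rank 72. The mean level of Apoa5 was 917 TPM, that of Apob 886 TPM and that of Lcat 740 TPM. Scarb1 with 177 TPM and Mttp with 146 TPM were the lowest. Between neighbours in this order, the ranges over the 9 libraries were separate only for Apoa1 above Apoc3, Apoc3 above Apoa4 and Lcat above Scarb1. Apoe and Apoa2 changed places between libraries, with Apoe higher in 5 of 9. Together the 10 genes made up 7.43, 6.65 and 6.84% of all TPM in the NC livers. Their share was 6.84, 6.38 and 5.38% in the sh1# livers and 7.09, 7.49 and 6.02% in the sh2# livers, so the ranges of the 3 groups overlapped.

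**Figure D1:**
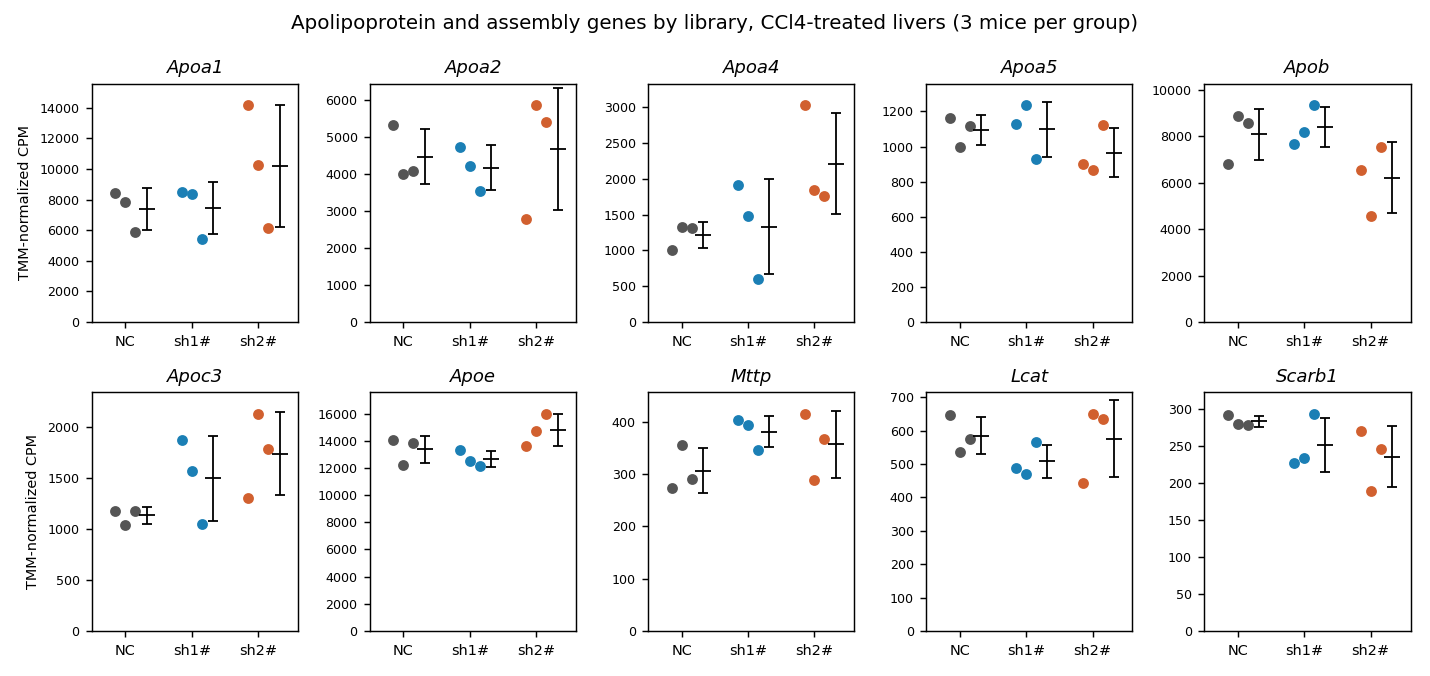
TMM-normalized CPM of each of the 10 genes (vertical axes, linear and starting at 0) in the NC, sh1# and sh2# livers, 1 point per library in the order of the replicate number and, beside the points, the mean with its SD (n = 3). Apoa4 in the sh2# livers lies between 1763 and 3026 CPM, above the highest NC library at 1323 CPM, whereas its sh1# libraries spread from 606 to 1918 CPM.

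The first question was whether the members differed between livers with an shRNA against lnc-Helf and control livers. None of the 10 members passed an adjusted p of 0.05 for sh1# against NC, where 0% of all genes tested passed in either direction and the lowest adjusted p of a member was 0.335 (edgeR's quasi-likelihood test with Benjamini-Hochberg adjustment). None passed for sh2# against NC either, where 4.71% of all genes passed as higher and 3.89% as lower, and the lowest adjusted p of a member was 0.114. At an unadjusted p under 0.05 there were 0 members for sh1# and 2 for sh2#, Apoa4 and Apoc3, against 17.9 and 31.2% of all genes. DESeq2 also called 0 members in both comparisons, against 2.98% of genes for sh1# and 16% for sh2#. Both comparisons share the NC libraries. The libraries of 2 groups were also compared by their ranges. For sh1# no member was separate from NC, where 15.6% of genes were separate and higher and 12.9% separate and lower. For sh2# Apoa4 and Apoc3 were separate and higher, and Scarb1 was separate and lower, where 16.8% of genes were higher and 16.1% lower. The median log2 fold change of the 10 members was 0.0085 for sh1# and 0.11 for sh2#, beside 0.020 and 0.0046 over all genes tested. In whole-liver RNA, fewer cells of a type and less RNA per cell cannot be told apart.

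**Figure D2:**
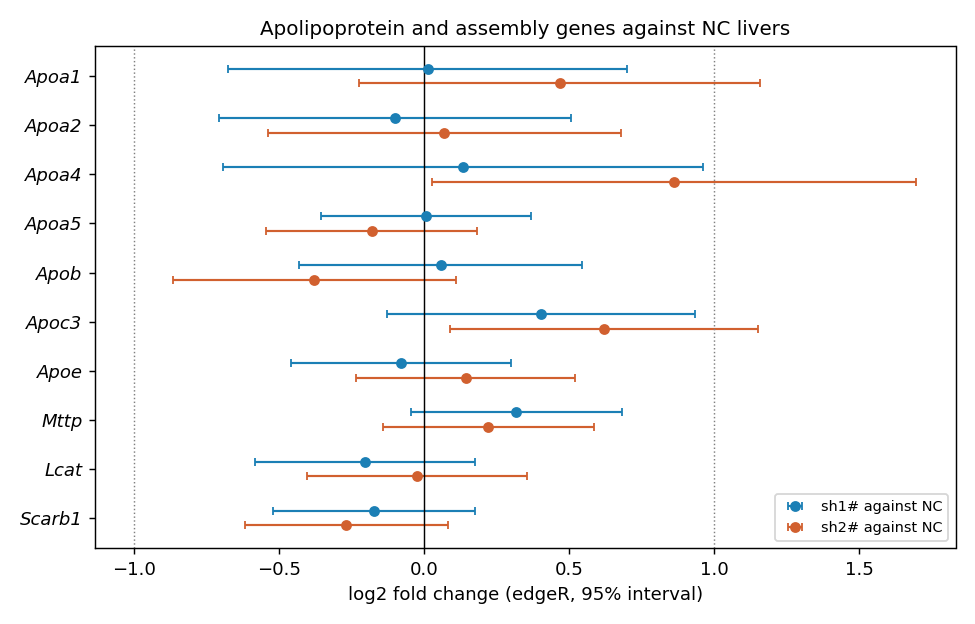
log2 fold change of the 10 genes against the NC livers with its 95% interval from edgeR (horizontal axis), for sh1# and sh2# with 3 livers per group, where dotted lines mark a fold change of 2 in either direction. Only the sh2# intervals of Apoa4 (0.03 to 1.70) and Apoc3 (0.09 to 1.15) lie on 1 side of 0, before any adjustment for the number of genes.

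Apob, the structural protein of very low density lipoprotein, was measured at 6809, 8860 and 8544 CPM in the NC livers, at 7670, 8188 and 9321 CPM in the sh1# livers and at 6543, 4551 and 7526 CPM in the sh2# livers. The sh2# libraries overlapped the NC libraries but all lay below the sh1# libraries. The log2 fold change was 0.06 ± 0.22 (standard error, n = 3 per group) for sh1# with an adjusted p of 0.919, and -0.38 ± 0.22 for sh2# with an adjusted p of 0.263. Mttp, which loads lipid onto the Apob protein, was measured at 274, 355 and 289 CPM in the NC livers, at 404, 393 and 347 CPM in the sh1# livers and at 414, 288 and 366 CPM in the sh2# livers. Here 2 of 3 libraries in each shRNA group lay above every NC library. For Mttp the log2 fold change was 0.32 ± 0.16 for sh1# (adjusted p = 0.335) and 0.22 ± 0.16 for sh2# (adjusted p = 0.381), neither of which passed.

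Apoa1 was measured at 8442, 7830 and 5863 CPM in the NC livers, at 8501, 8355 and 5455 CPM in the sh1# livers and at 14151, 10256 and 6170 CPM in the sh2# livers. Replicate 1 of sh2# was the highest of all 9 libraries, and replicate 3 of sh2# lay inside the NC range. The log2 fold change of Apoa1 was 0.01 ± 0.31 for sh1# (adjusted p = 0.990) and 0.47 ± 0.31 for sh2# (adjusted p = 0.327). Apoa2 was measured at 5318, 3989 and 4084 CPM in the NC livers, at 4741, 4217 and 3531 CPM in the sh1# livers and at 2796, 5854 and 5400 CPM in the sh2# livers. The sh2# group held both the lowest and the highest Apoa2 library, and the lowest was replicate 1, where Apoa1 was highest. For Apoa2 the log2 fold change was -0.10 ± 0.27 for sh1# (adjusted p = 0.875) and 0.07 ± 0.27 for sh2# (adjusted p = 0.883).

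Lcat, the plasma enzyme that esterifies cholesterol on high density lipoprotein, was measured at 646, 535 and 576 CPM in the NC livers, at 490, 469 and 565 CPM in the sh1# livers and at 443, 650 and 635 CPM in the sh2# livers. All groups overlapped, and the adjusted p was 0.540 for sh1# (log2 fold change -0.21 ± 0.17) and 0.937 for sh2# (-0.02 ± 0.17). Scarb1, the receptor through which hepatocytes take cholesterol from high density lipoprotein, was measured at 293, 280 and 279 CPM in the NC livers, at 228, 234 and 294 CPM in the sh1# livers and at 271, 190 and 246 CPM in the sh2# livers. The NC livers were close to each other, with an SD of 7.78 CPM, and all 3 sh2# livers and 2 of 3 sh1# livers lay below them. For Scarb1 the log2 fold change was -0.17 ± 0.16 for sh1# (adjusted p = 0.576) and -0.27 ± 0.16 for sh2# (adjusted p = 0.266), so the separate sh2# range did not pass the test.

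Apoc3, which restrains triglyceride clearance, was measured at 1179, 1037 and 1179 CPM in the NC livers, at 1872, 1569 and 1043 CPM in the sh1# livers and at 1307, 2126 and 1783 CPM in the sh2# livers. All 3 sh2# libraries and 2 of 3 sh1# libraries lay above every NC library. The log2 fold change was 0.40 ± 0.24 for sh1# (adjusted p = 0.393) and 0.62 ± 0.24 for sh2# (adjusted p = 0.114), the latter a 1.54-fold difference with a 95% interval of 1.06 to 2.22. Apoa5, which favours triglyceride clearance, was measured at 1165, 999 and 1115 CPM in the NC livers, at 1129, 1235 and 929 CPM in the sh1# livers and at 902, 867 and 1124 CPM in the sh2# livers. The groups overlapped, with log2 fold changes of 0.01 ± 0.16 for sh1# (adjusted p = 0.991) and -0.18 ± 0.16 for sh2# (adjusted p = 0.473).

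Apoa4 was measured at 1005, 1323 and 1320 CPM in the NC livers, at 1918, 1475 and 606 CPM in the sh1# livers and at 3026, 1841 and 1763 CPM in the sh2# livers. The sh2# libraries all lay above the NC libraries, while the sh1# libraries held 2 values above and 1 below them. The log2 fold change was 0.13 ± 0.37 for sh1# (adjusted p = 0.880) and 0.86 ± 0.37 for sh2# (adjusted p = 0.150), a 1.82-fold difference with a 95% interval of 1.02 to 3.24. Without replicate 3 of sh1#, a library of neither group in the comparison of sh2# with NC, the adjusted p of Apoa4 for sh2# was 0.0484 (edgeR). In that fit more genes passed for sh2# in general, 1536 of 13250 against 1123 of 13059 with all libraries. Without replicate 1 of sh2# the log2 fold change was 0.55 with an adjusted p of 0.336, where 1658 of 13224 genes passed. Apoe was measured at 14049, 12228 and 13879 CPM in the NC livers, at 13326, 12536 and 12129 CPM in the sh1# livers and at 13626, 14712 and 15983 CPM in the sh2# livers. Both shRNA groups overlapped the NC range, with log2 fold changes of -0.08 ± 0.17 for sh1# (adjusted p = 0.832) and 0.14 ± 0.17 for sh2# (adjusted p = 0.591).

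Some of these separations depended on the scale. In deposited TPM, Apoc3 in the sh2# livers overlapped the NC range, with a lowest value of 5567 TPM against a highest NC value of 5935 TPM. Apoa4 stayed separate by a small margin, at 1600 TPM or more against at most 1572 TPM. In TPM, Apoa4 was the only member separate and higher with sh2#, as were 5.12% of all genes tested. Apoa5, Apob and Scarb1 lay below NC in every sh2# library, as did 31.2% of all genes, and Apoe, Lcat and Scarb1 in every sh1# library, as did 22.9% of all genes. On the log2(TPM + 1) scale the median of all genes tested was itself lower, by -0.10 for sh1# and -0.18 for sh2#, so that these lower TPM values are to be read relative to that shift.

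The second question was whether the 2 shRNAs differed from each other. None of the 10 members passed for sh2# against sh1#, where 0% of all genes passed, 0 members had an unadjusted p under 0.05 against 10.5% of genes, and DESeq2 called 0 members and 0.926% of genes. Apoe was the only member with all sh2# libraries above all sh1# libraries, where this held for 7.02% of genes, and Apob the only one with all of them below, where this held for 7.14%. The log2 difference was 0.22 ± 0.17 for Apoe (adjusted p = 0.665) and -0.44 ± 0.22 for Apob (adjusted p = 0.520). For Apoa4, whose estimates for the 2 shRNAs lay furthest apart, the log2 difference was 0.73 ± 0.37 with a 95% interval of -0.10 to 1.56 and an adjusted p of 0.525. When the mean of both shRNA groups was set against NC, 0 members passed, where 2.38% of genes were higher and 3.51% lower. Apoc3 alone had an unadjusted p under 0.05, as did 29.6% of genes, with a log2 fold change of 0.51 ± 0.21 and an adjusted p of 0.141.

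Ratios of 2 members within a library do not depend on how libraries are scaled to each other. Of the 45 pairs among the 10 genes, 4 (8.89%) had a ratio in the sh1# livers that was separate from the NC livers and 17 (37.8%) had one in the sh2# livers. Over all pairs of the 13003 genes with counts in every library, these shares were 26.5 and 30.9%. In 3 pairs (6.67%, against 14% of all pairs) both shRNA groups were separate from NC in the same direction, and each of them contained Apoc3. The shares among the 10 genes were thus below those of all pairs except for sh2# alone. These pairs were chosen after their values were seen and are described without a test. The ratio of Apoc3 to Apoe counts was 0.0839, 0.0848 and 0.0849 in the NC livers, 0.140, 0.125 and 0.0860 in the sh1# livers and 0.0959, 0.144 and 0.112 in the sh2# livers. The NC livers were nearly equal in this ratio, and replicate 3 of sh1# lay just above them. The ratio of Apoc3 to Apoa5, which act in opposite directions on triglyceride clearance, was 1.01, 1.04 and 1.06 in the NC livers, 1.66, 1.27 and 1.12 in the sh1# livers and 1.45, 2.45 and 1.59 in the sh2# livers. The remaining pair was Apoc3 to Apoa2, with at most 0.289 in the NC livers and at least 0.295 in the sh1# and 0.330 in the sh2# livers. Of the 17 pairs separate with sh2#, 6 contained Apoa4 and 6 contained Apoc3, each of 9 possible pairs. With all other genes as partners, 63.3% of the ratios of Apoa4 and 48.5% of those of Apoc3 were separate with sh2#, beside a median of 28.6% per gene. The ratio of Apoa4 to Apob was 0.148, 0.149 and 0.154 in the NC livers and 0.462, 0.405 and 0.234 in the sh2# livers, whereas the sh1# livers at 0.250, 0.180 and 0.0650 lay on both sides. The ratio of the main high density lipoprotein proteins, Apoa1 to Apoa2, was 5.06 in replicate 1 of sh2# and between 1.14 and 1.98 in the other 8 libraries.

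**Figure D3:**
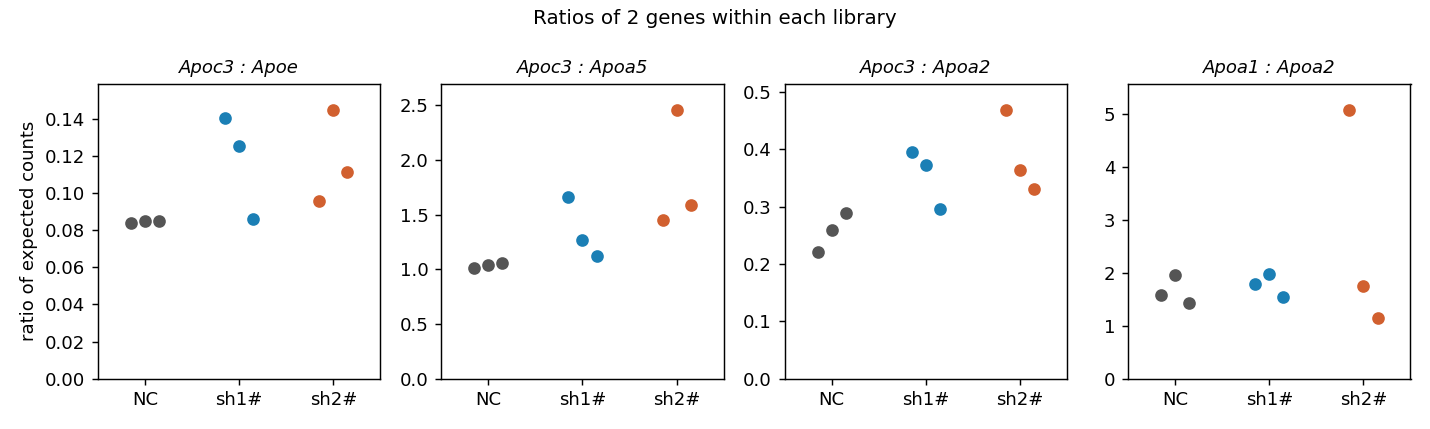
Ratio of the expected counts of 2 genes within each library (vertical axes, linear and starting at 0, not corrected for length), 1 point per library in the NC, sh1# and sh2# livers. In the first 3 panels all shRNA libraries lie above the NC libraries, by a narrow margin in replicate 3 of sh1# (Apoc3 to Apoe 0.0860 against at most 0.0849), and in the last panel replicate 1 of sh2# stands at 5.06.

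Lists of other lipoprotein genes were described in the same way. Of 92 list genes tested, 0 passed for sh1#. For sh2# 5 were higher and 6 lower, which is 5.43 and 6.52% of the list genes, beside 4.71 and 3.89% of all genes tested. Among 16 other apolipoproteins and related genes tested, 0 were higher and 1 lower with sh2#, and the median log2 fold change was 0.35. The lower gene was Apobr, a receptor of macrophages for apolipoprotein B particles, at 5.99, 3.58 and 4.74 CPM in the NC and 2.42, 2.38 and 1.52 CPM in the sh2# livers (log2 fold change -1.17 ± 0.29, adjusted p = 0.0411). Apoc2, the cofactor of lipoprotein lipase, chosen after its values were seen, was measured at 480, 485 and 592 CPM in the NC, 799, 621 and 453 CPM in the sh1# and 1335, 802 and 804 CPM in the sh2# livers. It missed the threshold with sh2# (log2 fold change 0.92 ± 0.25, adjusted p = 0.0519). Saa1, an acute phase apolipoprotein of high density lipoprotein also named after its values were seen, ranged from 12.9 to 126 CPM in the NC livers, 19.8 to 531 CPM in the sh1# livers and 19.4 to 2328 CPM in the sh2# livers.

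Of 16 genes for lipid loading and secretion, 3 were higher and 0 lower with sh2#, with a median of 0.14. Tm6sf2, which promotes the lipidation of very low density lipoprotein, was measured at 27.4, 24.8 and 37.8 CPM in the NC, 47.3, 39.6 and 41.1 CPM in the sh1# and 49.8, 54.2 and 46.3 CPM in the sh2# livers. In CPM all shRNA libraries lay above NC, as they did for 7.76% of all genes tested. The log2 fold change was 0.51 ± 0.16 for sh1# (adjusted p = 0.178) and 0.74 ± 0.16 for sh2# (adjusted p = 0.0324). In deposited TPM both shRNA groups overlapped NC. The highest NC value was 52.9 TPM, and the lowest values were 48.0 TPM for sh1# and 49.0 TPM for sh2#. Tmem41b, a lipid scramblase of the endoplasmic reticulum, was measured at 23.7, 23.5 and 21.0 CPM in the NC, 33.9, 32.3 and 31.7 CPM in the sh1# and 30.6, 54.4 and 52.4 CPM in the sh2# livers, with a log2 fold change of 1.01 ± 0.19 for sh2# (adjusted p = 0.0253). Surf4, a cargo receptor for lipoproteins leaving the endoplasmic reticulum, was measured at 247, 273 and 230 CPM in the NC and 317, 347 and 388 CPM in the sh2# livers, a log2 difference of 0.49 ± 0.12 (adjusted p = 0.0448). P4hb, the partner subunit of the Mttp protein, named after its values were seen, missed the threshold for sh2# at 0.63 ± 0.17 on the log2 scale (adjusted p = 0.0509).

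Of 16 receptors and uptake genes, 0 were higher and 2 lower with sh2#. Sort1, a sorting receptor for Apob, was measured at 15.6, 8.85 and 15.9 CPM in the NC and 7.13, 5.59 and 5.13 CPM in the sh2# livers (log2 fold change -1.18 ± 0.30, adjusted p = 0.0462). Mylip, a ubiquitin ligase that degrades the LDL receptor, differed by -1.01 ± 0.27 on the log2 scale (adjusted p = 0.0481). Among 13 lipases and remodelling genes, Angptl8, an inhibitor of lipoprotein lipase, was higher and Pltp, the phospholipid transfer protein of plasma, was lower. Angptl8 was measured at 17.5, 30.4 and 49.3 CPM in the NC, 121, 128 and 47.9 CPM in the sh1# and 105, 157 and 64.5 CPM in the sh2# livers (log2 fold change for sh2# 1.75 ± 0.47, adjusted p = 0.0484). In deposited TPM the sh2# livers overlapped NC for Angptl8, with a lowest value of 122 TPM against a highest NC value of 127 TPM. Pltp was measured at 95.2, 59.1 and 96.1 CPM in the NC, 25.6, 46.2 and 55.7 CPM in the sh1# and between 29.7 and 33.5 CPM in the sh2# livers (log2 fold change for sh2# -1.39 ± 0.27, adjusted p = 0.0268). All shRNA libraries of Pltp lay below NC, as they did for 7.15% of all genes tested. Of 11 transporters tested, 0 were higher, and Abcg1, a cholesterol exporter, was lower (log2 fold change -0.86 ± 0.23, adjusted p = 0.0484). Of 20 regulators, Xbp1, a transcription factor of the unfolded protein response, was higher (0.51 ± 0.12, adjusted p = 0.0367) and Foxo1, a forkhead factor restrained by insulin that promotes Mttp and Apoc3 transcription, was lower (-0.67 ± 0.14, adjusted p = 0.0336). For the mean of both shRNA groups, 10 list genes passed, 4 higher and 6 lower. This is 4.35 and 6.52% of the 92 list genes tested, beside 2.38 and 3.51% of all genes. Among the lower were Stab1, a scavenger receptor of endothelium and macrophages (-0.65 ± 0.16, adjusted p = 0.0481), and Npc2, a lysosomal cholesterol carrier (-0.39 ± 0.10, adjusted p = 0.0492).

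These list calls depended on the libraries and on the fit. Of the 11 genes called with sh2#, 0 passed without replicate 1 or 3 of NC or replicate 2 of sh2#, where 0 of all genes passed. Without replicate 2 of sh1# or replicate 3 of sh2# 0 passed, where 171 and 327 of all genes passed, against 1123 with all libraries. Without replicate 2 of NC 3 passed (387 of all genes), and without replicate 1 of sh1# 4 passed (532 of all genes). All 11 passed without replicate 3 of sh1# (1536 of all genes) and 10 without replicate 1 of sh2# (1658 of all genes). Of the 10 genes called for the mean of both groups, 0 passed without replicate 1 or 3 of NC or replicate 1 or 2 of sh1#, where 0 of all genes passed. Without replicate 2 of sh2# 0 passed, where 110 of all genes passed, against 770 with all libraries. Without replicate 3 of sh2# 1 passed (391 of all genes), and without replicate 2 of NC 4 passed (430 of all genes). All 10 passed without replicate 3 of sh1# (1412 of all genes) or replicate 1 of sh2# (1710 of all genes). DESeq2 called all 11 and all 10, and in these comparisons it called 16 and 14.7% of all genes. With all libraries kept, the fit of only the groups compared called 4 of the 11, where 500 of all genes passed. Library totals alone called 7 of the 11 (1355 of all genes). TPM also called 7 of the 11 (1657 and 1556 of all genes with pseudocounts of 1 and 0.1). Angptl8, Surf4, Tm6sf2 and Xbp1 were not called in these fits. The replicate block called 0 of the 11 and 0 of the 10, where 0 of all genes passed. None of the log2 fold changes of these list genes reversed under any alternative, for example Pltp from -1.60 to -1.28 and Tmem41b from 0.69 to 1.21 for sh2#.

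**Figure D4:**
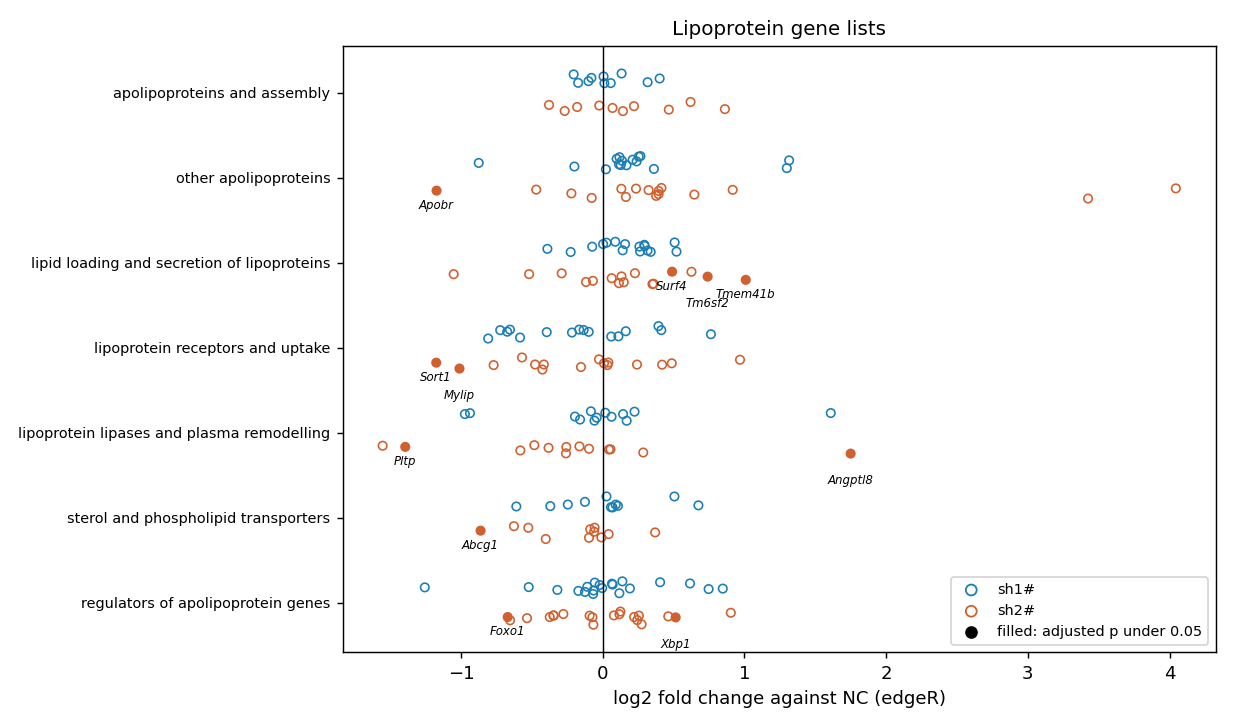
log2 fold change against the NC livers from edgeR (horizontal axis) for each tested gene of the 10 apolipoprotein and assembly genes and of 6 lists of related genes (rows), with sh1# above and sh2# below in each row, and filled points for an adjusted p under 0.05. No point of the first row is filled, the 11 filled and named genes all belong to sh2#, and the unfilled sh2# points beyond 3 are Saa1 (3.42) and Saa2 (4.04).

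Levels of cell type markers were described beside these genes. No marker of any list passed for sh1# against NC or for sh2# against sh1#. The summed level of 14 hepatocyte markers lay between 130063 and 154847 CPM in the NC livers, between 141869 and 181366 CPM in the sh1# livers and between 163013 and 179783 CPM in the sh2# livers. Alb, at 6.81 to 12.4% of all counts, was the largest part of these sums, which therefore largely follow its level. None of the 14 passed with either shRNA, and their median log2 fold change was 0.30 for sh1# and 0.39 for sh2#, larger than the medians of the apolipoprotein and assembly genes given before. The summed level of 15 macrophage markers lay between 1208 and 1683 CPM in the NC livers, between 819 and 1018 CPM in the sh1# livers and between 742 and 866 CPM in the sh2# livers. With sh2#, 4 of these 15 were lower (Csf1r, Lyz2, Ccr2 and Itgam), with a median of -0.63, where 3.89% of all genes tested were lower. Of all genes tested, 50.5% had positive values with sh2#. Of 8 other leukocyte markers tested, all 8 had negative values with sh2# (median -1.11) and 0 passed, and their summed level was 45.8 to 82.5 CPM in the NC, 32.1 to 74.5 CPM in the sh1# and 26.7 to 37.6 CPM in the sh2# livers. The 10 endothelial markers all had negative values with sh2# (median -0.35) and 0 passed. With sh1# 9 of the 10 were negative (median -0.16). Their sum was 255 to 399 CPM in the NC, 245 to 327 in the sh1# and 215 to 296 in the sh2# livers. Of 10 stellate cell and fibroblast markers, 9 had negative values with sh2# (median -0.40) and Dcn was lower by the test. With sh1# 8 of the 10 were negative (median -0.55). The sums of 887 to 1496 CPM in the NC, 524 to 931 in the sh1# and 620 to 1178 in the sh2# livers overlapped. Among 6 cholangiocyte markers 3 were positive and 3 negative with sh2#, and 0 passed. Without replicate 1 or 3 of NC, without replicate 2 of sh2# or with the replicate block, 0 of all genes passed for sh2#. The calls of the 4 macrophage markers and of Dcn were thus absent in those fits. The part of these cell types in the results was not tested.

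For the members separate in any comparison, the genes with the most similar pattern over the 9 libraries were listed by the root mean square difference of centred log2(CPM + 1) values. They were Ndufa12 (0.10) and Ptms (0.11) for Apoc3, Slc30a3 (0.21) and Spc25 (0.26) for Apoa4, and Spg11 (0.06) and Vps13b (0.07) for Apob. For Apoe they were Copz2 (0.05) and Flvcr1 (0.06), and for Scarb1 they were Asah1 (0.07) and Akap9 (0.08). A member that varies little gives small differences. The SD of the member's own values was 0.36 for Apoc3, 0.61 for Apoa4, 0.30 for Apob, 0.12 for Apoe and 0.20 for Scarb1. No other member, and no neighbour of the chromosome 9 cluster, was among these most similar genes.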

How the data were processed

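Liver RNA of 9 mice, 3 per group, was sequenced as single-end reads of 50 bases on the BGIseq500 platform, and groups were taken from the labels, which call the replicates biological. The authors deposited 1 table with RSEM expected counts per gene and library, not normalized, and with TPM and FPKM values, which they normalized for depth and transcript length. According to the processing notes of the submitters, RSEM, Bowtie2 and BWA were used (versions not given) with the genome build hg19, although the gene numbers are those of mouse. How hg19 was used is not stated, so no coordinates were taken from the table. Of the expected counts, 8.15% were not whole and all were rounded. The strand setting of the counting is likewise not stated, so reads of overlapping antisense genes could not be told apart.

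Counts were tested in R 4.3.3 with edgeR 4.0.16 (quasi-likelihood test, TMM factors 0.882 to 1.07, filterByExpr with a minimum count of 10, all 9 libraries in 1 fit without covariates), with Benjamini-Hochberg adjustment over 13059 genes. Standard errors were derived from the fold change and the F statistic. Members and list genes were called where the adjusted p was below 0.05, and counts over all genes in the closing section also required more than a 2-fold change. An exact permutation test of 3 against 3 livers cannot go below 0.1 and was not used. The script was tested on simulated counts. Alternatives were DESeq2 1.42.0, other factors and filters, fits of only the groups compared, a replicate block, limma 3.58.1 on log2 TPM with pseudocounts of 1 and 0.1 and on log2 FPKM with a pseudocount of 1, and leaving out each library in turn. No 2 libraries held identical values.

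The members and the gene lists were chosen with earlier results of these data known. Named were all members and the 2 most similar genes per separate member. Of the list genes called, those with the smallest adjusted p were named, up to 3 per direction. List genes named after their values were seen are marked in the text. Saa2, named in a figure for its extreme value, and Fmo2 were named outside these rules.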

Additional observations from a re-analysis of the deposited data

Results flagged for a closer look

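Apoe lay below the mean of the NC livers in all 3 sh1# libraries and above it in all 3 sh2# libraries, which is why it is listed here, although both groups overlapped the NC range and neither passed against NC (adjusted p = 0.832 and 0.591). The log2 difference of sh2# against sh1# was 0.22 ± 0.17 with an adjusted p of 0.665 from edgeR, so the difference did not pass. The direction for sh2# against NC was reversed with library totals alone, in TPM and in FPKM, and the mean TPM of both shRNA groups (18758 and 20402) lay below that of NC (21963).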

How the results depend on the processing

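With the 2-fold threshold added to the adjusted p, edgeR called 0 genes for sh1#, 289 for sh2# and 0 for sh2# against sh1#. DESeq2 called 159, 524 and 10. For sh1#, a fit of only the groups compared called 1. For sh2#, library totals alone gave 446, log2(TPM + 0.1) 540, log2(FPKM + 1) 118, no fold threshold 1123 and the replicate block 0. Leaving out 1 library at a time gave 0 to 3 genes for sh1#, 0 to 484 for sh2# and 0 to 1 for sh2# against sh1#. The cause of these differences was not tested. The number of members called was 0 under every alternative in every comparison, except 1 for sh2# (Apoa4) without replicate 3 of sh1#, so that it ranged from 0 to 1 there. In that fit 1536 of 13250 genes passed for sh2#, against 1123 of 13059 with all libraries. With the replicate block 0 members passed, and 0 of all genes tested passed in any comparison. Deviations of same-numbered libraries correlated between -0.42 and 0.27, against -0.26 to 0.36 for other pairs, and in 2 of 18 comparisons of a library with another group (replicate 3 of sh1# and of sh2# with each other) the own number correlated best, so the numbers were not taken to pair the mice. The median log2 fold change of all genes was shifted by library totals alone (-0.11 for sh1#, -0.15 for sh2#), log2(TPM + 1) (-0.10, -0.18), log2(TPM + 0.1) (-0.12, -0.23) and, for sh2#, log2(FPKM + 1) (-0.11), and member values on these scales are to be read relative to it.

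Of 830 member values under the alternatives, 81 changed sign, and 79 of these lay within 1 standard error of 0 in the report. None of the changes concerned Apoc3. The cause was not tested.

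Against the signs in the report, the following log2 values changed sign for sh1#. With DESeq2 they were Apoa1 at -0.0031 and Apoa5 at -0.0097. With RLE factors they were Apoa1 at -0.0031 and Apoa5 at -0.0097. With upper-quartile factors they were Apoa1 at -0.029 and Apoa5 at -0.036. With library totals alone they were Apoa1 at -0.12, Apoa5 at -0.12 and Apob at -0.072. With totals without Alb and the 10 genes they were Apoa1 at -0.0061 and Apoa5 at -0.012. With a mean of at least 50 counts they were Apoa1 at -0.034 and Apoa5 at -0.041. With only the groups compared they were Apoa1 at -0.0098 and Apoa5 at -0.017. With the replicate block they were Apoa1 at -0.0021 and Apoa4 at -0.011. With log2(TPM + 1) they were Apoa1 at -0.15, Apoa4 at -0.16, Apoa5 at -0.15 and Apob at -0.084. With log2(TPM + 0.1) they were Apoa1 at -0.15, Apoa4 at -0.16, Apoa5 at -0.15 and Apob at -0.084. With log2(FPKM + 1) they were Apoa1 at -0.14, Apoa4 at -0.14, Apoa5 at -0.13 and Apob at -0.068. Against the signs in the report, the following log2 values changed sign for sh2#. With library totals alone they were Apoa2 at -0.093 and Apoe at -0.013. With log2(TPM + 1) they were Apoa2 at -0.30, Apoe at -0.10 and Mttp at -0.017. With log2(TPM + 0.1) they were Apoa2 at -0.30, Apoe at -0.10 and Mttp at -0.017. With log2(FPKM + 1) they were Apoa2 at -0.23 and Apoe at -0.033. Against the signs in the report, the following log2 values changed sign for sh2# against sh1#. With log2(TPM + 1) they were Apoa2 at -0.044. With log2(TPM + 0.1) they were Apoa2 at -0.044. Against the signs in the report, the following log2 values changed sign for the mean of both groups. With log2(TPM + 1) they were Apoa1 at -0.0049 and Apoe at -0.16. With log2(TPM + 0.1) they were Apoa1 at -0.0049 and Apoe at -0.16. With upper-quartile factors they were Apoe at -0.0024. With library totals alone they were Apoe at -0.11. With a mean of at least 50 counts they were Apoe at -0.013. With log2(FPKM + 1) they were Apoe at -0.12.

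Leaving out 1 library at a time changed the sign of these log2 values, given as ranges. Apoa1 for sh1# ranged from -0.13 to 0.20. Apoa2 for sh1# ranged from -0.22 to 0.046. Apoa4 for sh1# ranged from -0.25 to 0.48. Apoa5 for sh1# ranged from -0.11 to 0.12. Apob for sh1# ranged from -0.050 to 0.13. Apoa2 for sh2# ranged from -0.14 to 0.31. Lcat for sh2# ranged from -0.13 to 0.11. Apoa2 for sh2# against sh1# ranged from -0.017 to 0.43. Mttp for sh2# against sh1# ranged from -0.22 to 0.042. Scarb1 for sh2# against sh1# ranged from -0.21 to 0.046. Apoa2 for the mean of both groups ranged from -0.13 to 0.13. Apoe for the mean of both groups ranged from -0.026 to 0.069.

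With 3 livers per group, the members' standard errors of 0.16 to 0.37 on the log2 scale for sh1# and sh2# limit which differences could be called, and the intervals of Apoa1, Apoa2 and Apoa4 were the widest.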
